A study of Arabis alpina with 12 samples.

Results

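Lateral buds in the growing zone (V3) of Arabis alpina were compared between the end of a long cold treatment and 5 days after the return to warm long days. The comparison used 6 of the 12 libraries of the series, 3 at the end of the cold (0 d) and 3 taken 5 days later (5 d). Arabis alpina is a perennial relative of Arabidopsis thaliana, and all plants belonged to the ecotype Pajares, with no transgene or mutant named. Long days (16 h light, 20 °C by day and 18 °C by night) lasted 8 weeks, after which the plants spent 12 weeks at 4 °C, still with 16 h of light. The 0 d plants were harvested there, while the 5 d plants had gone back to the first conditions, so the groups differ in temperature at harvest as well as in time. The other 6 libraries are dormant-zone (V2) buds harvested at the same 2 times. They entered the same fit, and so its estimate of the spread, and were used to test whether a change differed between zones. The labels call the 3 libraries of each group biological replicates and do not say how many plants or buds went into each.

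Buds formed in the axils of leaves can stay closed for a long time or grow out into branches. In A. thaliana, closed buds carry transcripts of the abscisic acid pathway, a hormone of drought and dormancy, and of genes that low sugar switches on. Buds that grow out divide, expand, make chlorophyll and lay down vascular strands, and in perennials such as A. alpina a winter's cold also decides which meristems go on to flower. Warmth and cold have transcript programmes of their own: cold acclimation genes rise in the cold, heat shock genes guard protein folding, and many clock genes follow the hour of harvest, which the labels do not give.

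Values below are the authors' normalized counts in each library. A difference is 5 d minus 0 d in log2(normalized count + 1), printed with its standard error after ±. The added 1 shrinks it for genes with low counts, but with values listed at 0 it can exceed the log2 difference in FPKM. For GH3.1 it was 6.52 against 3.21 in FPKM. Adjusted p-values come from limma over all genes tested, and a gene with an adjusted p under 0.05 is described as having risen or fallen. A 0 that another library of its group (20 or more) or an FPKM of 1 or more contradicted was left out as a failed value, so some genes have 2 usable libraries in a group. Where all usable libraries of a group are listed at 0, no fold is given, and the adjusted p can be too low because such a group adds no spread. Any library left out of such a group was left out for its FPKM of 1 or more. The group can therefore look emptier than it was, which favours a call. Gene names are those of the A. thaliana homologue, which the deposited tables give only for genes that the authors listed as changed in at least 1 of their 4 comparisons. Each list member below was therefore selected on these same libraries, and its roles are known from A. thaliana. The 28 lists fixed by locus held 641 loci, and 201 genes were paired with them, so most members could not be assessed. For photosynthesis these numbers were 63 loci and 13 genes, and for xylem and lignin 30 and 9.

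The 6 libraries held 20216921 to 22586938 reads in genes. The first principal component of 9965 genes with no failed value held 66.7% of the variance among them and set the 0 d libraries (-72.7 to -42.7) apart from the 5 d libraries (53.7 to 57.7). V3 0 d replicate 1 lay farthest out and differed most from its partners (mean SD of the log2 differences 0.819, against 0.772 and 0.716 for the other 0 d libraries and 0.626 to 0.638 at 5 d). Relative to the 0 d mean, its dormancy genes averaged -1.25 on the log2 scale, its abscisic acid response genes -0.60 and its S phase genes 0.32. V3 0 d replicate 2 lay on the other side, at 1.08, 0.48 and -0.28. Among the V2 libraries, 0 d replicate 3 stood apart, with 12252622 reads and 6541 failed zeros against 881 to 1213 in the other V2 libraries. Transcripts of the meristem and boundary genes KNAT6, CUC1, CUC3 and BOP2 and of the mitotic gene KNOLLE were present in all 6 V3 libraries. Such genes carry a name only because the authors listed them as changed, so their presence says little about the tissue. The paired genes of the meristem and boundary list did not include the shoot meristem markers STM, WUS and CLV3. No anther marker of the list had a paired gene.

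Of 16772 genes tested, 2373 were higher and 1896 lower at 5 d, so that 25.5% were called, 14.1% higher and 11.3% lower. A difference of at least 1 on the log2 scale was found for 1475 of the higher and 625 of the lower genes. In 256 of the called genes all usable 0 d libraries were listed at 0, and in 75 all usable 5 d libraries were. The counts moved with the test: edgeR on the recovered reads called 1562 higher and 965 lower of 15397, and limma with the deposited zeros kept called 1306 and 778 of 17666. Among the 2445 tested genes with a homologue, 54.4% were called, 37.8% higher and 16.6% lower, with a median difference of 0.34 against -0.03 over all genes tested. These shares are the background against which the counts of list members below are to be read. The 0 d and 5 d libraries did not overlap in 43.3% of all genes tested and in 99.1% of those called. A lack of overlap in a called gene below therefore adds little to its call. FPKM gave the same sign in 1643 of 1654 called genes that had one. Sizes held less often: with FPKM in place of normalized counts, the difference moved for 46 of the 103 genes named by the rule and held for 57.

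**Figure D1:**
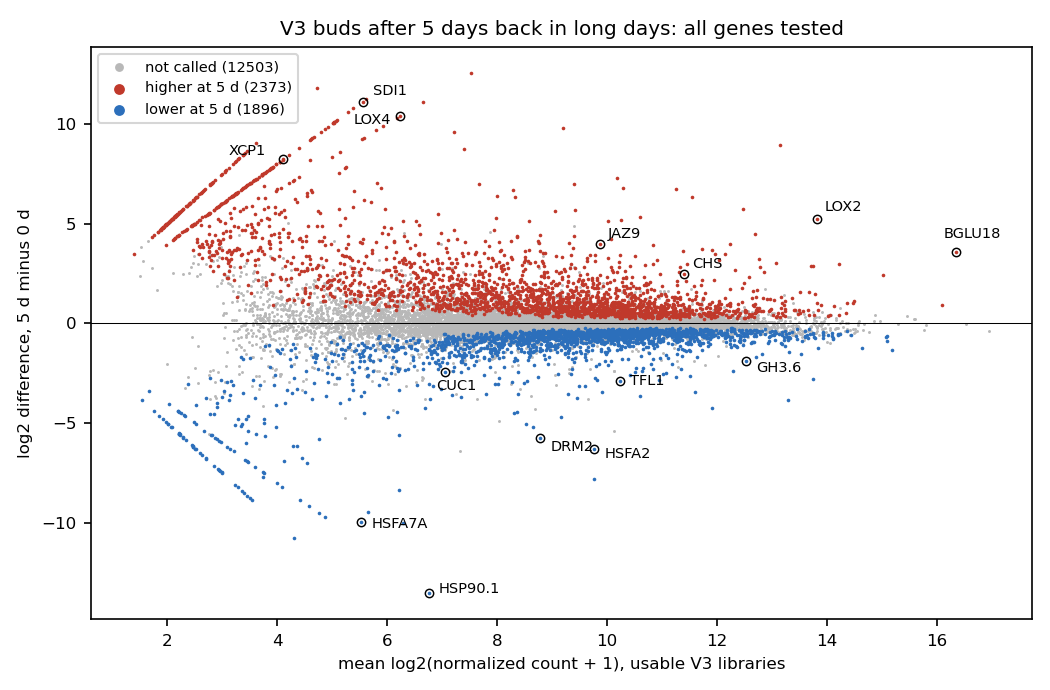
Difference between 5 d and 0 d in V3 buds (vertical axis, log2) against the mean level over usable V3 libraries (horizontal axis, log2 of normalized count + 1), 1 point per gene tested. Of the points, 2373 are called higher (red), 1896 lower (blue) and 12503 not called (grey), and straight diagonals at the left are genes listed at 0 in 1 group.

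Heat shock genes fell together in growing-zone buds. These genes encode chaperones that hold or refold damaged proteins and the heat shock factors that switch them on. Of 9 tested members, 8 fell and none rose, with a median difference of -5.59. In V2 buds 4 of 7 fell and none rose (median -2.18), against 18.1% lower among genes with a homologue. HSP90.1, a stress-induced form of the cytosolic chaperone HSP90, had 13845, 6121 and 18641 at 0 d and 0 in each library at 5 d (adjusted p = 1.06e-07), and its FPKM averaged 269 and 0.468. The small heat shock protein gene HSP18.2 had 355, 225 and 479.9 at 0 d and 19.5, 12.7 and 12.2 at 5 d (log2 difference -4.45 ± 0.40, adjusted p = 8.7e-05). In both genes all 0 d libraries stood far above the 5 d libraries. HSFA2, a factor that sustains the heat response, had 9340.03, 4619 and 10542 at 0 d and 84.8, 151 and 70.2 at 5 d (log2 difference -6.30 ± 0.49, adjusted p = 1.77e-05). HSFA7A, a related factor, had 2329.9, 765 and 1676 at 0 d and 0, 2.11 and 0 at 5 d (log2 difference -9.95 ± 0.54, adjusted p = 5.93e-07), and HSFA7B had 721, 265 and 978 at 0 d and 0 in each library at 5 d (adjusted p = 2.58e-06). No 0 d library of these 3 factors overlapped a 5 d library. DREB2A, an activator of both drought and heat genes, had 486, 564 and 496 at 0 d and 9.74, 23.2 and 3.74 at 5 d (log2 difference -5.59 ± 0.48, adjusted p = 1.64e-05), and the repressor HSFB2B had 2891, 1818 and 2292 at 0 d and 324, 449.5 and 264 at 5 d (log2 difference -2.76 ± 0.36, adjusted p = 0.000316). HSFB2A fell less (log2 difference -0.96 ± 0.24, adjusted p = 0.0159, but 0.0528 to 0.0614 without V3 0 d replicate 1 and V3 5 d replicates 2 and 3 in turn). The small heat shock gene HSP22 was not called, with 23.58, 22.1 and 57.7 at 0 d and 19.5, 19.0 and 31.8 at 5 d (log2 difference -0.44 ± 0.50, adjusted p = 0.569). HSP23.6, another small heat shock gene, could not be tested, since 2 of its 5 d values were failed zeros, and its FPKM averaged 198 and 1.19.

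Cold response genes divided, with 3 risen, 3 fallen and 5 not called of 11 tested and a median difference of -0.32. Without V3 0 d replicate 1, 3 rose and 5 fell. COR28, a cold-regulated gene that also acts on the clock, had 126, 192 and 182 at 0 d and 10.7 and 3.74 in the 2 usable libraries at 5 d (log2 difference -4.47 ± 0.42, adjusted p = 6.65e-05). By FPKM its log2 difference was -2.9. ADH1, the alcohol dehydrogenase of fermentation, had 1182, 1109 and 2562 at 0 d and 79.9, 74.9 and 48.7 at 5 d (log2 difference -4.48 ± 0.31, adjusted p = 8.95e-06), and SUS1, a sucrose synthase that splits sucrose, had 5712, 4127 and 4239 at 0 d and 1081, 1099.6 and 1259.96 at 5 d (log2 difference -2.02 ± 0.16, adjusted p = 1.04e-05). For these 3 genes every 5 d library lay below every 0 d library. CAX1, a vacuolar calcium exchanger, rose, with 289, 418 and 554 at 0 d and 2080.4, 1913 and 1953 at 5 d (log2 difference 2.28 ± 0.26, adjusted p = 0.000144), and the zinc finger factor ZAT10 had 60.5 and 8.37 in the 2 usable libraries at 0 d and 399.5, 201 and 231 at 5 d (log2 difference 3.47 ± 0.68, adjusted p = 0.00483). The AP2 factor DDF1 had 6.15, 31.7 and 13.95 at 0 d and 77.0, 52.8 and 73.0 at 5 d (log2 difference 2.16 ± 0.54, adjusted p = 0.0141). The cold activator CBF3 was not called, with 42.0, 278 and 159.97 at 0 d and 182, 79.1 and 68.3 at 5 d (log2 difference -0.31 ± 0.67, adjusted p = 0.775). ERD10, a dehydrin, had 3055, 10931 and 9199 at 0 d and 3403, 3681 and 3197 at 5 d and was not called either (log2 difference -0.98 ± 0.39, adjusted p = 0.0901).

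Among genes of galactinol and starch metabolism, 3 of 5 tested rose and 2 fell (median 1.03). Galactinol synthases start the raffinose sugars that build up in cold or dry tissue, and here GOLS3 had 302 and 103 in the 2 usable libraries at 0 d and 0 in each library at 5 d (adjusted p = 1.98e-06) while GOLS1 had 0 in each library at 0 d and 725, 901 and 1165 at 5 d (adjusted p = 4.37e-06). FPKM averaged 6.05 and 0.10 for GOLS3 and 0.131 and 56.8 for GOLS1. GOLS3 was thus listed at 0 in all 5 d libraries and GOLS1 in all 0 d libraries. BAM5, a beta-amylase, had 0 in each library at 0 d and 139, 137 and 179.7 at 5 d (adjusted p = 4.31e-08). SEX1, which phosphorylates starch so that it can be broken down, had 6149, 8403 and 8801 at 0 d and 4164, 4932 and 3835 at 5 d (log2 difference -0.84 ± 0.17, adjusted p = 0.00505). BAM3, the plastid beta-amylase, rose less (log2 difference 1.03 ± 0.33, adjusted p = 0.0444, but 0.116 to 0.126 without V3 0 d replicates 1 and 3 and V3 5 d replicates 1 and 2 in turn).

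Dormancy genes were lower at 5 d in part. Of 6 tested members, 3 fell, 1 rose and 2 were not called, with a median of -1.34. DRM2, a dormancy-associated gene, had 875, 7134 and 5385 at 0 d and 119.9, 68.6 and 24.3 at 5 d (log2 difference -5.76 ± 0.77, adjusted p = 0.000577). HB53, a homeobox gene that acts below the branching repressor BRC1 in A. thaliana, had 299, 1601 and 757 at 0 d and 95.5, 84.4 and 76.8 at 5 d (log2 difference -3.05 ± 0.49, adjusted p = 0.00127), and its relative HB40 had 204, 208 and 273 at 0 d and 51.6, 57.0 and 68.3 at 5 d (log2 difference -1.93 ± 0.26, adjusted p = 0.000454). The 0 d libraries differed widely among themselves in DRM2 and HB53, with replicate 1 lowest, yet none reached down to the 5 d values. The linker histone gene HIS1-3, which drought induces, rose with 47.2, 289 and 88.4 at 0 d and 565, 561 and 372 at 5 d (log2 difference 2.19 ± 0.61, adjusted p = 0.0237, but 0.0687 to 0.0738 without V3 0 d replicates 1 and 3 and V3 5 d replicates 1 and 2 in turn). NCED3, the enzyme that limits abscisic acid synthesis, had 98.4, 711 and 235 at 0 d and 253, 165 and 135 at 5 d and was not called (log2 difference -0.52 ± 0.60, adjusted p = 0.569). DRMH1, a dormancy-associated relative of DRM2, had 111, 938 and 457 at 0 d and 282, 215 and 168 at 5 d and was not called (log2 difference -0.74 ± 0.62, adjusted p = 0.43).

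Of 11 abscisic acid response genes, 6 fell, 1 rose and 4 were not called (median -0.73). ABI5, a bZIP activator of the response, had 382, 469 and 362 at 0 d and 46.8, 13.7 and 35.6 at 5 d (log2 difference -3.77 ± 0.40, adjusted p = 7.43e-05). AFP1, which binds ABI5 and lowers its level, had 295, 348 and 247 at 0 d and 70.2, 109.7 and 116 at 5 d (log2 difference -1.60 ± 0.23, adjusted p = 0.000614). Activator and repressor thus stood lower in all 5 d libraries. RD29B, a classical target gene, had 277 and 112 in the 2 usable libraries at 0 d and 0 in each library at 5 d (adjusted p = 1.41e-05). Its FPKM was 0.252, 8.85 and 5.02 at 0 d and 0.874, 0.4755 and 0.232 at 5 d. The 0 d library left out, replicate 1, thus lay within the 5 d range in FPKM. The homeobox gene HB12 had 469, 651 and 356 at 0 d and 154, 177 and 109 at 5 d (log2 difference -1.73 ± 0.29, adjusted p = 0.00147). RD22, a drought gene, went the other way with 489, 969.8 and 678 at 0 d and 2293, 4484 and 2058 at 5 d (log2 difference 2.01 ± 0.32, adjusted p = 0.00119). ABI1, a phosphatase that restrains the pathway, had 327, 530.03 and 370.2 at 0 d and 417, 405 and 463 at 5 d and was not called (log2 difference 0.1 ± 0.18, adjusted p = 0.739). RAB18, a dehydrin, had 121, 2211 and 1741 at 0 d and 1060.2, 839 and 160.1 at 5 d and was not called (log2 difference -0.57 ± 1.01, adjusted p = 0.721), and neither was ABF2 (log2 difference 1.35 ± 0.50, adjusted p = 0.0758), the uncalled member with the largest difference. The list's counts include AFP3, which was not called without V3 5 d replicate 1 or 3. Of abscisic acid metabolism, 2 genes were tested, NCED3 as above and BGLU18, a beta-glucosidase of endoplasmic reticulum bodies that can release abscisic acid from its glucose ester. BGLU18 rose, with 10552, 43588 and 31188 at 0 d and 283460, 268616 and 301781 at 5 d (log2 difference 3.55 ± 0.42, adjusted p = 0.000158), and at 5 d it took 1.26% to 1.43% of each library against 0.0485% to 0.215% at 0 d.

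Genes that low sugar switches on were lower at 5 d, for 3 of 4 tested members. TPS9 and TPS11 encode trehalose phosphate synthase-like proteins. TPS9 had 2651, 3362 and 2766 at 0 d and 901, 1000.4 and 1253 at 5 d (log2 difference -1.48 ± 0.15, adjusted p = 6.79e-05), and TPS11 had 1077, 1723 and 1489 at 0 d and 736, 625 and 895 at 5 d (log2 difference -0.92 ± 0.18, adjusted p = 0.00394). BZIP1, a bZIP factor that energy shortage calls up, had 87.1, 153 and 109.8 at 0 d and 64.3, 41.2 and 46.8 at 5 d (log2 difference -1.17 ± 0.24, adjusted p = 0.00532). In all 3 genes the groups did not overlap. LKR, which breaks down lysine, was called higher with 0 in each library at 0 d and 469.7 and 299 in the 2 usable libraries at 5 d, yet its FPKM averaged only 0.208 and 0.626.

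**Figure D2:**
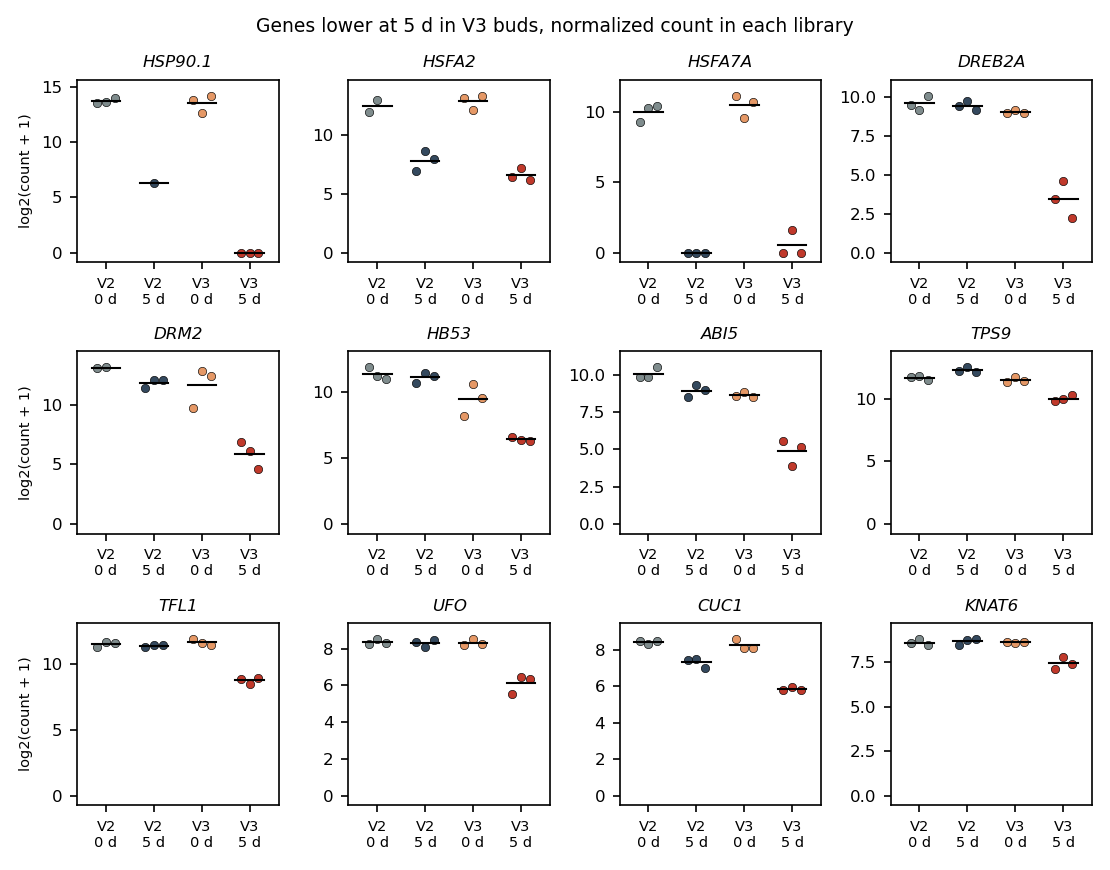
Normalized counts of 12 genes lower at 5 d in V3 buds, as log2(count + 1) on the vertical axis, for V2 and V3 buds at 0 d and 5 d. Each point is 1 usable library and each bar a group mean. In V3 the 5 d points lie below the 0 d points in every panel, while the V2 groups of DREB2A, HB53, TFL1, UFO and KNAT6 overlap.

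Several flowering regulators fell. Among 4 tested flowering repressors, 2 fell and none rose. TFL1, which keeps a shoot meristem from forming flowers, had 3975, 3116 and 2870.2 at 0 d and 469.7, 359 and 505 at 5 d (log2 difference -2.90 ± 0.17, adjusted p = 9.85e-07). SVP, a MADS repressor, had 2354, 3537 and 2897 at 0 d and 1710.1, 2306 and 2069 at 5 d (log2 difference -0.52 ± 0.16, adjusted p = 0.0398, but 0.0816 to 0.143 without V3 0 d replicates 2 and 3 and V3 5 d replicates 1 and 3 in turn). The repressor TEM2 was not called (log2 difference 1.11 ± 0.61, adjusted p = 0.209). Of 4 flowering promoters, SPL5 fell with 229.6, 393 and 486 at 0 d and 147, 101 and 92.7 at 5 d (log2 difference -1.65 ± 0.39, adjusted p = 0.011) and SPL3 rose with 29.7, 42.2 and 73.5 at 0 d and 164, 156 and 135 at 5 d (log2 difference 1.72 ± 0.38, adjusted p = 0.0076). Both belong to the SPL family that the age-related miR156 represses. SPL15 also fell (log2 difference -1.07 ± 0.28, adjusted p = 0.0185, but 0.0563 to 0.0695 without V3 0 d replicate 1 and V3 5 d replicate 1 in turn), and the MADS gene AGL19 was not called (log2 difference 0.41 ± 0.25, adjusted p = 0.26). UFO, which helps switch on the petal and stamen gene AP3, had 294, 369 and 299 at 0 d and 45.8, 86.5 and 80.5 at 5 d (log2 difference -2.21 ± 0.24, adjusted p = 9.24e-05). CRC, a carpel and nectary gene, had 231, 97.0 and 174 at 0 d and 49.7, 74.9 and 84.2 at 5 d and was not called (log2 difference -1.2 ± 0.63, adjusted p = 0.198).

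All 6 tested members of the meristem and boundary list fell, by -2.42 to -1.0 on the log2 scale (median -1.37). CUC1 and CUC3, NAC factors that mark the boundary between organ and meristem, had 387, 269.8 and 269.7 at 0 d and 53.6, 60.2 and 54.3 at 5 d (log2 difference -2.42 ± 0.20, adjusted p = 1.13e-05) and 312, 293 and 231 at 0 d and 84.8, 66.5 and 132 at 5 d (log2 difference -1.60 ± 0.26, adjusted p = 0.00133). KNAT6, a homeobox gene of the meristem and its boundaries, had 406, 384 and 405 at 0 d and 140.3, 221 and 172 at 5 d (log2 difference -1.18 ± 0.18, adjusted p = 0.000854). In BOP2, which patterns the base of leaves and flowers, the values were 321, 302 and 352 at 0 d and 155, 161 and 169 at 5 d (log2 difference -1.0 ± 0.18, adjusted p = 0.00283). RAX1 and RAX2, MYB factors needed to start axillary meristems, were at lower levels, with differences of -1.27 and -1.48. Their adjusted p-values were 0.0154 and 0.0161, but 0.0579 to 0.0619 without V3 0 d replicate 3 and V3 5 d replicate 1 in turn for RAX1 and 0.0603 to 0.0634 without V3 0 d replicate 3 and V3 5 d replicate 1 in turn for RAX2. In bulk buds, fewer cells of a type and less RNA per cell cannot be told apart, here and in the lists that follow.

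All 4 tested clock genes were lower at 5 d, with a median of -1.90, and 2 of the 4 were still called without V3 5 d replicate 3. ELF4, of the evening complex, had 106, 163 and 174 at 0 d and 5.85, 17.9 and 8.42 at 5 d (log2 difference -3.76 ± 0.44, adjusted p = 0.000159). BOA, a MYB factor close to LUX, had 87.1, 239 and 209 at 0 d and 17.5, 43.3 and 15.9 at 5 d (log2 difference -2.77 ± 0.54, adjusted p = 0.00372). PRR9 and PRR5, which act in sequence through the day, had differences of -0.96 and -1.03, with adjusted p = 0.0162 and 0.0254. PRR9 was not called without V3 5 d replicate 2 or 3 (0.0565 to 0.0619 without V3 5 d replicates 2 and 3 in turn), nor PRR5 without any of 3 libraries (0.072 to 0.0952 without V3 0 d replicate 2 and V3 5 d replicates 1 and 3 in turn).

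Genes of cell division were at the same order of level in both groups, and none passed the test. Of 14 S phase genes, which copy DNA, limma called none (1 at an unadjusted p under 0.05), edgeR called none and DESeq2 called 1 lower. Their median difference was -0.02. Of 13 G2/M genes, which act at mitosis, limma called none (none at an unadjusted p under 0.05), and edgeR and DESeq2 each called 1 higher, with a median of -0.04. PCNA1, the sliding clamp of replication, had 7399.7, 3651 and 4769 at 0 d and 4524, 4776 and 4874 at 5 d (log2 difference -0.1 ± 0.23, adjusted p = 0.799). MCM3, of the replication helicase, had 6488, 4264 and 4068 at 0 d and 3823, 4083 and 4247 at 5 d (log2 difference -0.25 ± 0.22, adjusted p = 0.427), and KNOLLE, which fuses the new cell plate, had 3976, 2709.7 and 2775 at 0 d and 3574, 3139 and 3751 at 5 d (log2 difference 0.16 ± 0.17, adjusted p = 0.522). In these 3 genes V3 0 d replicate 1 was highest of the 0 d libraries and the groups overlapped. The uncalled members with the largest differences were E2FA, an S phase activator (log2 difference -0.64 ± 0.24, adjusted p = 0.0772), and CYCB2;2, a mitotic cyclin (log2 difference -0.59 ± 0.51, adjusted p = 0.43). Among 10 histone genes, 1 rose and 1 fell. The first was HIS1-3 and the second H3.3 (log2 difference -1.08 ± 0.35, adjusted p = 0.0452, but 0.0562 to 0.145 without V3 0 d replicates 1, 2 and 3 and V3 5 d replicates 2 and 3 in turn).

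Of 27 genes annotated as ribosomal proteins, 10 fell, none rose and 17 were not called, with a median of -0.52. The count depended on single libraries: 17 fell without V3 0 d replicate 2, 6 without each 5 d replicate in turn, and edgeR called 3 of 26. Summed over the 26 members with no failed value, they held 160948 to 279230 normalized counts at 0 d and 136683 to 138701 at 5 d. V3 0 d replicate 1 gave the highest sum, and without it 8 genes fell. In V2 buds 20 of 28 ribosomal protein genes fell and 1 rose (median -0.99), against 18.1% lower among genes with a homologue.

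Auxin genes mostly rose, though each list held few genes. Auxin is made in young leaves and moves down the stem, and its export from a bud accompanies outgrowth. YUC2, an enzyme of auxin synthesis, had 0 in each library at 0 d and 128, 106 and 90.8 at 5 d (adjusted p = 2.82e-07), and the transporter gene PIN7 had 116, 201 and 76.3 at 0 d and 273, 356 and 360.4 at 5 d (log2 difference 1.43 ± 0.33, adjusted p = 0.00937). All 5 d libraries of both genes lay above all 0 d libraries. Of 5 auxin response genes, 4 rose and 1 fell (median 3.66), but 2 rose of 3 tested without V3 0 d replicate 3. GH3.6, which conjugates auxin to amino acids, fell with 11221, 11140.3 and 12008 at 0 d and 2908, 2977 and 3263 at 5 d (log2 difference -1.91 ± 0.1, adjusted p = 6.41e-07). Its relative GH3.1 rose with 13.3, 0 and 0 at 0 d and 255, 139 and 309.8 at 5 d (log2 difference 6.52 ± 0.91, adjusted p = 0.0005). The repressors IAA14 and IAA7, which auxin degrades, had 0 and 6.51 in the 2 usable libraries at 0 d and 127, 135 and 116 at 5 d (log2 difference 5.53 ± 0.72, adjusted p = 0.000797) and 47.0 and 70.7 in the 2 usable libraries at 0 d and 765, 842 and 629 at 5 d (log2 difference 3.66 ± 0.67, adjusted p = 0.00475). By FPKM the log2 differences were 3.26 for IAA14 and 4.16 for IAA7. IAA4, of the same family, rose less (log2 difference 1.07 ± 0.21, adjusted p = 0.00377).

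The cytokinin and gibberellin lists gave mixed and less stable calls. Of 5 cytokinin genes, 2 rose and 2 fell, and every one of these calls was lost without some single library. The type-A response regulator ARR4, which cytokinin induces, had 529.9, 326 and 469 at 0 d and 933, 920.2 and 901 at 5 d (log2 difference 1.08 ± 0.30, adjusted p = 0.0229, but 0.0576 to 0.0684 without V3 0 d replicate 2 and V3 5 d replicates 1, 2 and 3 in turn). LOG5, which activates cytokinins, had 58.4, 126 and 114 at 0 d and 38.0, 5.28 and 38.4 at 5 d (log2 difference -2.16 ± 0.65, adjusted p = 0.0329, but 0.0565 to 0.0894 without V3 0 d replicates 2 and 3 and V3 5 d replicate 2 in turn). CKX5, which degrades them, had 578, 319 and 460.4 at 0 d and 152, 222 and 254 at 5 d (log2 difference -1.10 ± 0.36, adjusted p = 0.0446, but 0.0575 to 0.15 without V3 0 d replicates 1 and 3 and V3 5 d replicates 1, 2 and 3 in turn). LOG1 rose (adjusted p = 0.0461, but 0.074 to 0.15 without V3 0 d replicates 1 and 2 and V3 5 d replicates 1 and 3 in turn), and CKX1 was not called (log2 difference -0.41 ± 0.37, adjusted p = 0.461). Of 8 gibberellin genes, 1 rose, 2 fell and 5 were not called. GA20OX2, which makes gibberellin precursors, had 38.4 and 54.9 in the 2 usable libraries at 0 d and 0 in each library at 5 d (adjusted p = 6.03e-06), with mean FPKM of 2.99 and 0.308. RGL1, a DELLA repressor, had 54.3, 73.0 and 64.2 at 0 d and 133, 149 and 165 at 5 d (log2 difference 1.22 ± 0.21, adjusted p = 0.00167). GA2OX2, which inactivates gibberellin, had 606, 2983 and 1015 at 0 d and 464, 403 and 449 at 5 d (log2 difference -1.48 ± 0.46, adjusted p = 0.0419, but 0.0656 to 0.105 without V3 0 d replicate 3 and V3 5 d replicates 1, 2 and 3 in turn). The receptor GID1B was not called (log2 difference -0.98 ± 0.37, adjusted p = 0.08).

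Jasmonate genes rose almost throughout. Jasmonate is the hormone of wounding and defence against insects. Of 14 tested members, 13 rose and none fell, with a median of 1.89, against 37.8% higher among all tested genes with a homologue. In V2 buds 11 of 15 rose and none fell, with a median of 1.38, against 31.6% higher among genes with a homologue. The lipoxygenases LOX2 and LOX4 start jasmonate synthesis in the plastid. LOX4 had 0 in the 2 usable libraries at 0 d and 1675, 832 and 1696 at 5 d (adjusted p = 1.94e-06), and LOX2 had 2656 and 1004 in the 2 usable libraries at 0 d and 67894, 57079 and 59334 at 5 d (log2 difference 5.23 ± 0.43, adjusted p = 2.43e-05). In both, the lowest 5 d library was above the highest usable 0 d library. The 0 d library left out for LOX4, replicate 2, had an FPKM of 2.06, against 0.330 and 0.383 in the usable 0 d libraries. At 5 d the FPKM of LOX4 was 26.8, 13.4 and 26.4. AOC3, a later enzyme, had 741, 1321 and 898 at 0 d and 6255, 6256 and 8179 at 5 d (log2 difference 2.83 ± 0.28, adjusted p = 4.09e-05). Among the JAZ repressors, which jasmonate both induces and destroys, JAZ9 had 140.4, 398 and 231 at 0 d and 3998, 4159.9 and 3036 at 5 d (log2 difference 3.97 ± 0.33, adjusted p = 1.3e-05) and JAZ6 had 162, 201 and 124 at 0 d and 1017, 1395 and 1091 at 5 d (log2 difference 2.85 ± 0.26, adjusted p = 2.71e-05). JAZ10 and JAZ2 rose by 2.0 ± 0.19 and 1.66 ± 0.19 (adjusted p = 4.09e-05 and 0.000138). MYC2, the activator these repressors hold, had 3859, 11139 and 7084 at 0 d and 24289.9, 20064 and 16530.2 at 5 d (log2 difference 1.57 ± 0.34, adjusted p = 0.00676). JAR1, which makes the active conjugate, rose by 0.71 ± 0.23 (adjusted p = 0.0484, but 0.113 to 0.143 without V3 0 d replicate 1 and V3 5 d replicates 2 and 3 in turn). CYP94B3, which inactivates that conjugate, was the only uncalled member, with 9.23, 59.5 and 27.9 at 0 d and 90.6, 40.1 and 57.1 at 5 d (log2 difference 1.2 ± 0.64, adjusted p = 0.198).

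All 6 tested glucosinolate genes rose (median 2.48). Glucosinolates are the sulphur-rich defence compounds of the cabbage family, and myrosinases release their toxic products. CYP79B3, the entry enzyme of the indolic branch, had 0, 1.92 and 0 at 0 d and 352, 335 and 592 at 5 d (log2 difference 8.17 ± 0.66, adjusted p = 1.13e-05). SOT16, the sulphotransferase that finishes indolic glucosinolates, had 10.3, 25.9 and 16.7 at 0 d and 389.8, 485 and 755 at 5 d (log2 difference 4.90 ± 0.49, adjusted p = 5.47e-05), and CYP83B1, an enzyme between them, had 944, 1783 and 1399 at 0 d and 4697, 5552 and 7379 at 5 d (log2 difference 2.12 ± 0.28, adjusted p = 0.000385). The myrosinase gene TGG2 had 398 and 437 in the 2 usable libraries at 0 d and 3214, 3416 and 2473 at 5 d (log2 difference 2.85 ± 0.36, adjusted p = 0.000407). SOT17 and SUR1 rose by 1.88 ± 0.31 and 1.14 ± 0.17. CYP79B2 could not be tested, since 2 of its 0 d values were failed zeros, and its FPKM averaged 0.569 and 57.6.

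Of 5 flavonoid genes tested, 4 rose and none fell (median 1.75). Flavonoids are pigments and light screens made from phenylalanine. CHS, which forms the flavonoid skeleton, had 1215, 1206 and 1032 at 0 d and 5588, 6969 and 6534 at 5 d (log2 difference 2.46 ± 0.27, adjusted p = 9.76e-05). CHI, the next enzyme, had 468, 480.1 and 494 at 0 d and 1489.9, 1744 and 1749 at 5 d (log2 difference 1.78 ± 0.16, adjusted p = 2.39e-05), and PAL2, which feeds the whole pathway, had 359, 615 and 484 at 0 d and 1258, 1599 and 2032 at 5 d (log2 difference 1.75 ± 0.26, adjusted p = 0.000687). The glucosyltransferase UGT78D2 rose by 1.05 ± 0.27 (adjusted p = 0.0157, but 0.0541 to 0.0588 without V3 0 d replicate 3 and V3 5 d replicate 3 in turn). 5MAT, which decorates anthocyanins, was not called (log2 difference -2.60 ± 0.97, adjusted p = 0.0743), and DFR and LDOX, of the anthocyanin branch, could not be tested, with FPKM averages of 0.834 and 0.0689 and 1.33 and 0.319.

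**Figure D3:**
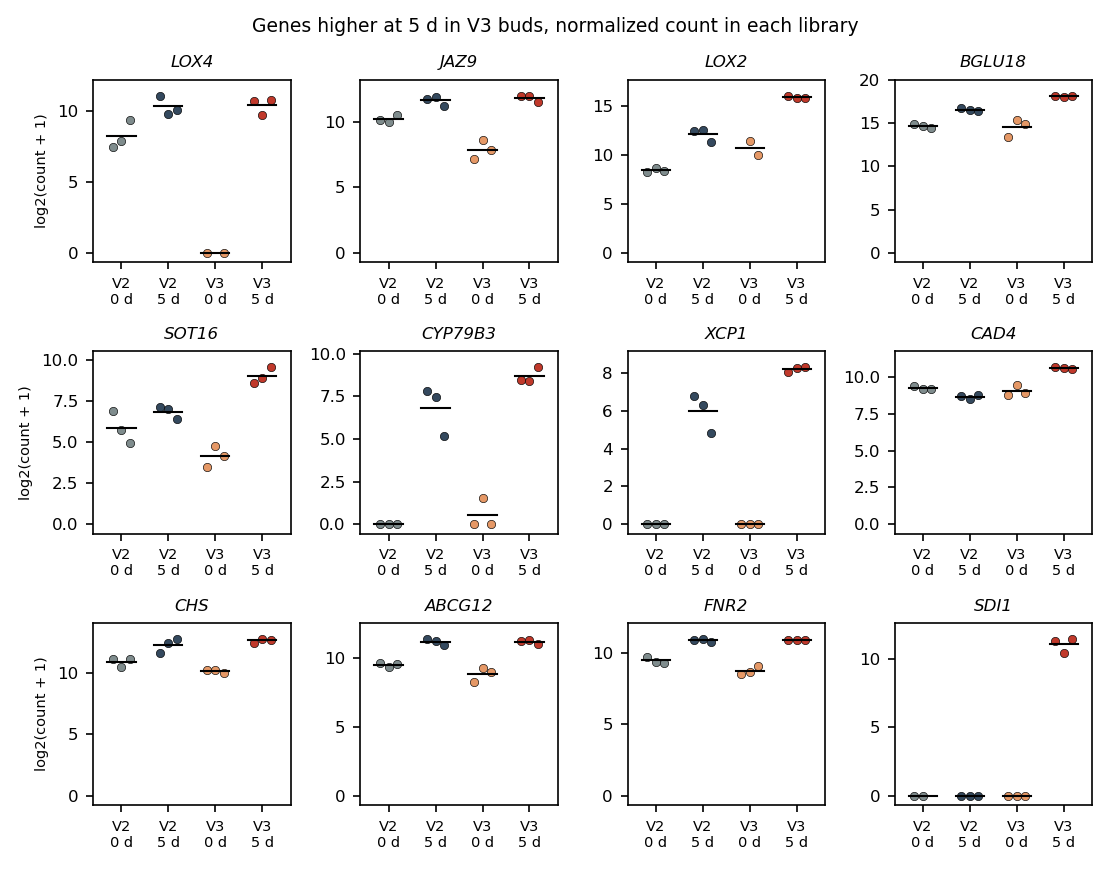
Normalized counts of 12 genes higher at 5 d in V3 buds, as log2(count + 1) on the vertical axis, for V2 and V3 buds at 0 d and 5 d. Each point is 1 usable library and each bar a group mean. In V3 the 5 d points lie above the 0 d points in every panel, and SDI1 is listed at 0 outside V3 5 d.

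Photosynthesis genes rose in 9 of 13 tested cases, none fell, and the median was 1.21. FNR2, which passes electrons to NADP, had 358, 406 and 529 at 0 d and 1874, 1934 and 1953 at 5 d (log2 difference 2.17 ± 0.15, adjusted p = 3.57e-06). The photosystem I subunit gene PSAN had 1879, 2351 and 2446 at 0 d and 5477, 5498 and 5003 at 5 d (log2 difference 1.27 ± 0.16, adjusted p = 0.000293). GLK1, a factor that drives chloroplast development, had 160.4 and 156 in the 2 usable libraries at 0 d and 1001, 1159 and 708 at 5 d (log2 difference 2.56 ± 0.25, adjusted p = 8e-05). LHCB4.3, an antenna protein that high light induces, had 51.3, 52.8 and 46.5 at 0 d and 228, 381 and 249.9 at 5 d (log2 difference 2.45 ± 0.32, adjusted p = 0.000367). In these 4 genes no 5 d library overlapped a 0 d library. RBCS3B, of the carbon-fixing enzyme, was not called, with 17645, 20462 and 8909 at 0 d and 19433, 21351 and 39134 at 5 d (log2 difference 0.78 ± 0.42, adjusted p = 0.215), and neither was PORA, which makes chlorophyll precursors in young tissue (log2 difference -0.55 ± 0.19, adjusted p = 0.0573). Summed over 10 members with no failed value, the list held 47115 to 58052 counts at 0 d and 69225 to 82468 at 5 d.

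Of 5 cuticle and wax genes, 4 rose and none fell (median 2.35). ABCG12, which exports wax, had 297, 619 and 509 at 0 d and 2426, 2486 and 2048 at 5 d (log2 difference 2.35 ± 0.24, adjusted p = 5.62e-05). GPAT6, an enzyme of cutin, had 156, 505 and 396 at 0 d and 1911, 1735 and 1448 at 5 d (log2 difference 2.42 ± 0.35, adjusted p = 0.000592). LTP4, a lipid transfer protein, had 32.8, 39.4 and 13.95 at 0 d and 231, 238 and 194 at 5 d (log2 difference 3.02 ± 0.53, adjusted p = 0.00219). DCR, another cutin gene, had 12613, 13268 and 13322 at 0 d and 24831, 25642 and 22356 at 5 d (log2 difference 0.89 ± 0.17, adjusted p = 0.00287). CYP86A2 was not called (log2 difference -1.0 ± 0.47, adjusted p = 0.153).

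All 9 tested genes of xylem and lignin rose, with a median of 3.82. Xylem vessels form as cells lay down a lignified wall and then digest their contents. XCP1 and XCP2, the proteases of that last step, had 0 in each library at 0 d and 264, 307 and 319 at 5 d (adjusted p = 4.53e-07) and 0, 11.5 and 0 at 0 d and 162, 168 and 189 at 5 d (log2 difference 6.22 ± 0.83, adjusted p = 0.000564). MC9, a metacaspase of the same step, had 0, 3.84 and 0 at 0 d and 38.0, 41.2 and 33.7 at 5 d (log2 difference 4.51 ± 0.82, adjusted p = 0.00256). At 0 d these 3 markers were thus at or near 0. The lignin genes CCOAOMT1, F5H and CAD4 had 1539.6, 1877 and 1633 at 0 d and 4499.96, 4758 and 4757 at 5 d (log2 difference 1.48 ± 0.1, adjusted p = 2.12e-06), 271 and 144 in the 2 usable libraries at 0 d and 2099.9, 2171 and 2067 at 5 d (log2 difference 3.41 ± 0.29, adjusted p = 3.18e-05) and 427, 694 and 492 at 0 d and 1625, 1576 and 1528 at 5 d (log2 difference 1.58 ± 0.16, adjusted p = 6.11e-05). FLA12, a fasciclin-like protein of thick walls, had 3.08, 2.88 and 1.86 at 0 d and 47.7, 63.3 and 59.9 at 5 d (log2 difference 4.01 ± 0.33, adjusted p = 1.34e-05). Summed over 8 members with no failed value, the list held 2096 to 2891 counts at 0 d and 7550 to 7750 at 5 d. Of other cell types, the phloem gene PP2-A1 had 0, 17.3 and 0 at 0 d and 21.4, 42.2 and 30.9 at 5 d (log2 difference 3.57 ± 1.05, adjusted p = 0.0296, but 0.0573 to 0.101 without V3 0 d replicates 1 and 3 and V3 5 d replicates 1, 2 and 3 in turn). Of the senescing-leaf markers, SGR1 rose with 134, 175 and 154 at 0 d and 292, 423 and 403 at 5 d (log2 difference 1.25 ± 0.18, adjusted p = 0.000719), and NYC1 fell with 1168, 1579.5 and 1378 at 0 d and 866, 944 and 918 at 5 d (log2 difference -0.59 ± 0.12, adjusted p = 0.00453), both enzymes of chlorophyll breakdown. The part of a changed share of vascular or green tissue in these and other results was not tested.

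Wall loosening genes rose in 5 of 9 tested cases, 1 fell and 3 were not called (median 1.18). Expansins and xyloglucan enzymes (XTH) let the wall stretch. EXPA10 had 361, 645 and 876 at 0 d and 3076, 2809 and 2750.2 at 5 d (log2 difference 2.29 ± 0.25, adjusted p = 0.000104) and XTH6 had 91.2, 513 and 412 at 0 d and 3081, 3253 and 2376 at 5 d (log2 difference 3.42 ± 0.50, adjusted p = 0.000677). XTH18 had 0 in each library at 0 d and 39.0 and 28.1 in the 2 usable libraries at 5 d (adjusted p = 3.12e-05). XTH8 fell with 374, 364 and 359.9 at 0 d and 226, 183 and 188 at 5 d (log2 difference -0.88 ± 0.21, adjusted p = 0.0121). The calls of EXPA1 and XTH32 were less stable (adjusted p = 0.0429, but 0.0884 to 0.14 without V3 0 d replicates 2 and 3 and V3 5 d replicates 1 and 2 in turn, and 0.0331, but 0.0577 to 0.0949 without V3 0 d replicates 1, 2 and 3 and V3 5 d replicates 1, 2 and 3 in turn), so that 2 or 3 members rose in 5 of the 6 fits that left out 1 library. The expansin-like gene EXLA2 was not called (log2 difference -0.77 ± 0.68, adjusted p = 0.444).

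**Figure D4:**
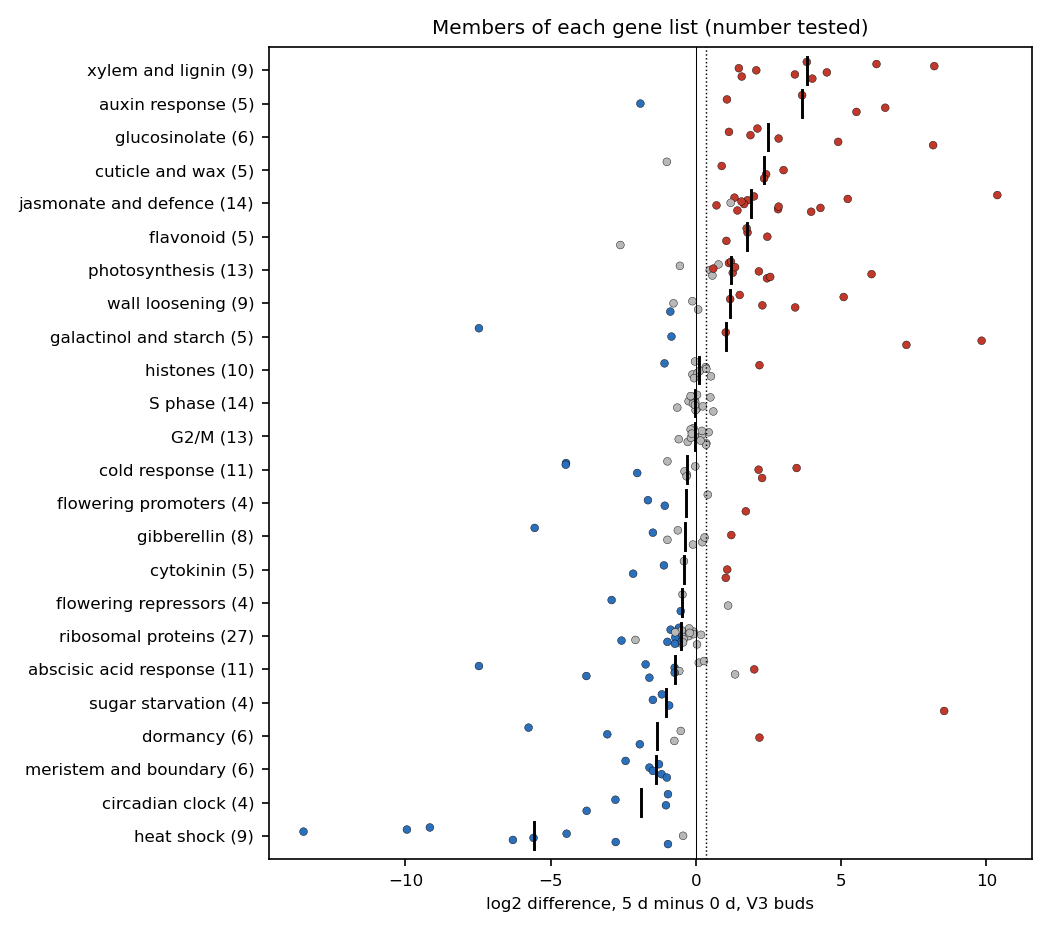
Log2 difference between 5 d and 0 d in V3 buds for every tested member of the lists with at least 3 tested genes. Points are genes (red called higher, blue called lower, grey not called), thick bars list medians, and the dotted line the median of tested genes with a homologue, 0.34. Medians run from -5.59 for heat shock to 3.82 for xylem and lignin.

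By size alone, among called genes with a symbol, a higher-group mean of at least 100 and no overlap, the 8 largest rises were SDI1, ZW9, LOX4, DIN11, TLL1, CA1, PLC1 and GOLS1. All 8 were listed at 0 in the usable 0 d libraries. For LOX4, ZW9, DIN11 and PLC1 the 0 d library left out had an FPKM of 1 or more. SDI1, a gene that sulphur deficiency induces, had 0 in each library at 0 d and 2616, 1409.8 and 2889 at 5 d (adjusted p = 4.55e-08), with FPKM averages of 0.163 and 117. ZW9 had 0 in the 2 usable libraries at 0 d and 2421, 1915 and 2191 at 5 d, and DIN11, a gene that darkness induces, had 0 in the 2 usable libraries at 0 d and 1125, 1071 and 1633 at 5 d. TLL1, a lipase-like gene, had 0 in each library at 0 d and 1343, 788 and 1463 at 5 d, and PLC1, which cleaves membrane phosphoinositides, had 0 in the 2 usable libraries at 0 d and 892, 941 and 996 at 5 d. CA1, a carbonic anhydrase, had 0 in each library at 0 d and 929, 1454 and 830.3 at 5 d, though its FPKM averaged only 0.0800 and 3.11. The 8 largest falls were HSP90.1, HSFA7A, FBA6, HSFA7B, GOLS3, RD29B, DAA1 and HSFA2. For RD29B, the 0 d library left out lay within the 5 d range in FPKM, as given above. FBA6, a glycolytic aldolase, had 1267, 283 and 905 at 0 d and 0 in the 2 usable libraries at 5 d (adjusted p = 2.83e-06, FPKM 53.9 and 1.02). DAA1, an ATPase gene known as a target of the pollen factor DUO1, had 319 and 87.4 in the 2 usable libraries at 0 d and 0 in each library at 5 d (adjusted p = 1.16e-05), with low FPKM of 0.549 and 0.0173.

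The same 5 days were then compared between zones, with the change in V3 minus the change in V2 tested in the same limma fit. Of 16077 genes tested, the change differed for 1243 (7.73%), with 702 (4.37%) rising more or falling less in V3 and 541 (3.37%) the reverse. Without the shallow V2 0 d replicate 3 the counts were 584 and 473, and without V3 0 d replicate 1 they were 1114 and 865. In 15628 genes tested in both zones, 941 rose in both and 601 fell in both, which is 44.6% of those that rose and 33.6% of those that fell in V3, and 47.4% and 34.5% of those in V2. In V2 by itself 24.8% of genes were called, and among those with a homologue 31.6% were higher. Opposite calls were made for 39 genes higher in V3 and lower in V2, and for 58 of the reverse kind.

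Genes whose change was more negative in V3 include TFL1, with 2511, 3416 and 3144 at 0 d and 2497, 2895 and 2916 at 5 d in V2, where the difference between zones was -2.78 ± 0.24, adjusted p = 3.16e-05. For UFO the V2 counts were 308, 371 and 310.4 at 0 d and 328, 268 and 353 at 5 d (difference -2.14 ± 0.34, adjusted p = 0.00371), and for KNAT6 they were 381, 448 and 351 at 0 d and 359, 428 and 457 at 5 d (difference -1.26 ± 0.25, adjusted p = 0.0146). The V2 libraries of all 3 overlapped between times. DREB2A had 713, 563 and 1065 at 0 d and 676, 842 and 568 at 5 d in V2 (difference -5.45, adjusted p = 0.000698), whereas HSFA7A fell in V2 as well, with 629.98, 1270 and 1409 at 0 d and 0 in each library at 5 d. No zone difference was called for HSFA7A (adjusted p = 0.967). Its 5 d values were at or near 0 in V2 and V3 alike, so the sizes of its falls cannot be compared. COR28 had 264, 182 and 147 at 0 d and 118, 178 and 188 at 5 d in V2 (difference -4.19 ± 0.57, adjusted p = 0.00213). TPS9 rose in V2, with 3447, 3618 and 2851 at 0 d and 4892, 5911 and 4621 at 5 d (difference -2.12 ± 0.22, adjusted p = 0.000152). ELF4 had 247, 114 and 290.02 at 0 d and 176, 283 and 255 at 5 d in V2 (difference -3.98 ± 0.62, adjusted p = 0.00359). ABI5 had 909, 928 and 1451 at 0 d and 359, 633 and 515 at 5 d in V2 (difference -2.64 ± 0.56, adjusted p = 0.0193), and GH3.6 had 13054, 13137 and 10809 at 0 d and 9043, 10129 and 10706 at 5 d (difference -1.60 ± 0.15, adjusted p = 5.96e-05).

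Genes that rose more in V3 include CAD4, with 677, 587 and 585 at 0 d and 415, 363 and 427 at 5 d in V2 (difference 2.19, adjusted p = 0.000169), CCOAOMT1, with 1448, 1506 and 1665 at 0 d and 1959.9, 2151 and 2254 at 5 d (difference 1.01 ± 0.13, adjusted p = 0.00119), and FLA12, with 4.57, 6.02 and 2.27 at 0 d and 6.83, 5.94 and 5.39 at 5 d (difference 3.53 ± 0.47, adjusted p = 0.0012). Among all tested genes with a homologue, the zones differed for 21.3% (12.5% more positive and 8.85% more negative in V3). The change was more positive in V3 for 5 of 9 xylem and lignin genes, 3 of 6 glucosinolate genes, 3 of 14 jasmonate genes, 3 of 11 photosynthesis genes, 2 of 13 G2/M genes, 1 of 14 S phase genes, 1 of 10 wall loosening genes, 1 of 5 cytokinin genes and 1 of 27 ribosomal protein genes, and more negative for none of these. It was more negative in V3 for 4 of 6 meristem and boundary genes, 4 of 11 abscisic acid response genes, 3 of 12 cold response genes, 2 of 4 clock genes, 2 of 4 flowering repressors, 2 of 6 heat shock genes, 2 of 7 dormancy genes and 1 of 4 galactinol and starch genes, and more positive for none of these. Of 4 sugar starvation genes, 3 were more negative and 1 more positive, of 5 auxin response genes 1 and 2, and of 7 gibberellin genes 1 and 1. No zone difference was called by limma among 6 flavonoid, 6 cuticle and wax, 4 flowering promoter and 10 histone genes. At an unadjusted p under 0.05 there were 2, 3, 1 and 3 in these lists, edgeR called none, and DESeq2 called 2, 1, 0 and 1. For the zone difference of G2/M and S phase genes, 7 of 13 and 4 of 14 had an unadjusted limma p under 0.05. There edgeR called 1 and 1, and DESeq2 called 5 and 3. In V2 by itself, 6 of 13 G2/M and 7 of 14 S phase genes fell and none rose, against 18.1% lower among genes with a homologue. SOT16 had 116, 52.2 and 29.5 at 0 d and 139, 126 and 83.5 at 5 d in V2 (difference 3.91 ± 0.70, adjusted p = 0.00779), JAZ9 had 1154, 1039 and 1498 at 0 d and 3559, 3827 and 2459.8 at 5 d (difference 2.57 ± 0.46, adjusted p = 0.0081), and LOX4 had 175, 233 and 654 at 0 d and 2131, 876 and 1065 at 5 d (adjusted p = 0.000141). The usable V3 0 d libraries of LOX4 were listed at 0. Its FPKM averaged 0.923 at 0 d and 22.2 at 5 d in V3, and 5.82 and 20.6 in V2. At 0 d every usable V2 library of JAZ9 and LOX4 lay above every usable V3 library, and at 5 d the zones overlapped. No zone difference was called for CHS, ABCG12 or BAM5 (adjusted p = 0.109, 0.253 and 0.395). By the largest positive differences, SDI1 and KAT2, a potassium channel gene of guard cells, had 0 in each library at 0 d and 2616, 1409.8 and 2889 at 5 d and 0 in each library at 0 d and 602, 609 and 719.8 at 5 d in V3 but were listed at 0 in the usable V2 libraries (adjusted p = 8.41e-07 and 1.84e-07). GGCT2;1, which recycles glutathione, had 11.5 and 0 in the 2 usable libraries at 0 d and 405, 203 and 694 at 5 d in V3 and 19.1 and 0 in the 2 usable libraries at 0 d and 0 in the 2 usable libraries at 5 d in V2 (adjusted p = 0.0461). PLC1 had 529 and 241 in the 2 usable libraries at 0 d and 816, 918 and 648 at 5 d in V2 (adjusted p = 4.6e-06).

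**Figure D5:**
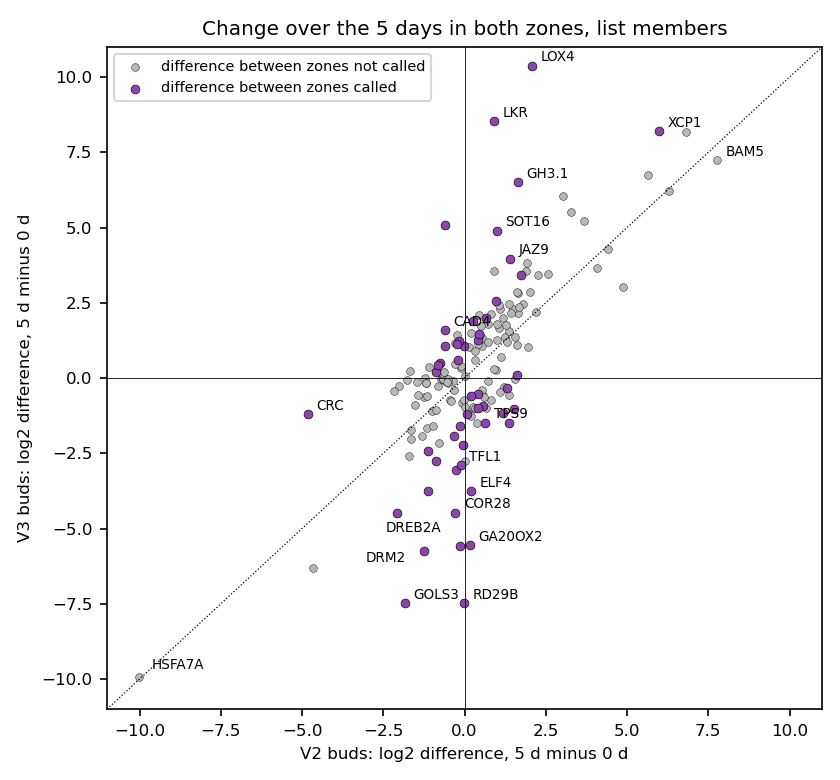
Log2 difference between 5 d and 0 d in V3 buds (vertical axis) against the same in V2 buds (horizontal axis) for 169 list members tested in both zones, 1 point per gene. Genes found only in the ribosomal protein or histone list are left out. The dotted line marks equal change, and the 50 purple points have an adjusted p under 0.05 for the difference between zones. TFL1, DREB2A and COR28 lie far below the line, SOT16 and LOX4 far above it, and HSFA7A and BAM5 near it. The positions of LOX4, HSFA7A and BAM5, each listed at 0 in at least 1 group, depend on the pseudocount.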

How the data were processed

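RNA of V2 and V3 lateral buds was sequenced in 12 libraries (150 base reads, 1 µg of total RNA with an integrity number above 8 each, per the labels' protocols). The submitters' processing notes name HISAT2, TopHat, StringTie and DESeq2, with no version or role, and the genome build is not given in the sources used here. The deposited table of 19722 genes is headed as counts, but its values are a normalized signal, gene counts that the authors divided by 1 factor per library: each column holds whole multiples of its smallest value. Dividing by that step gave whole reads (within 0.05) for 100% of values in each library, 12252622 to 22586938 reads in all. The authors' comparison tables add FPKM, log2 fold changes and corrected p-values, with a homologue for 2896 and a symbol for 1640 of the 3884 genes listed. The authors' deposited table for V3 lists 1767 genes, of which 1450 were tested here, 1383 were called with the same sign, none with the opposite sign and 67 were not called.

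Deposited counts of 0 were treated as failed values where another library of the group had at least 20 or the FPKM was at least 1 (5660 values in V3). A gene was tested if its mean reached 10 and each group kept 2 or more usable libraries, with limma 3.58.1 (R 4.3.3) on log2(normalized count + 1), with an intensity trend, all 12 libraries in 1 fit, two-sided, with Benjamini-Hochberg adjustment over all genes tested and a threshold of 0.05. The zone comparison was the interaction term. On simulated data for V3 (9964 genes, 200 changed), 35% of 2-fold and 99% of 4-fold changes were recovered, and 2.19% of calls were false. The simulation gave all genes and libraries the same relative spread, with no outlying library, and left values out at random from genes with no failed zero. It checks that the code runs as meant, and its rates cannot be carried over to the real calls. Alternatives used edgeR 4.0.16 (quasi-likelihood) and DESeq2 1.42.0 on whole reads, TMM factors, other pseudocounts (0.5 and 5) and filters (50 or none), other treatments of zeros, 6 libraries only, a replicate block and each library left out. FPKM, on log2(FPKM + 0.1), was added after the data were seen. Nothing says that the replicates came from separate plants, so p-values measure only the spread between these libraries.

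In each list, the 3 called genes with the smallest adjusted p and the uncalled gene with the largest difference were named. The 8 largest changes per direction and the 5 largest zone differences per direction followed, with a minimum mean of 100. Other genes were named after their values were seen. The members and lists were chosen with earlier results of these data known, and the ribosomal list was narrowed after its values were seen. Sequences were not used here.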

Additional observations from a re-analysis of the deposited data

Results flagged for a closer look

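Among the 103 genes named by the rule on lists, size and zone difference, the change over 5 days differed between zones for 42 (limma interaction, adjusted p under 0.05), 20 with a more positive and 22 with a more negative change in V3. The 5 largest called zone differences per direction were among the 103 by rule. The 42 is therefore not to be read as a result against the 7.73% called over all genes tested or the 21.3% among those with a homologue. Values below are the V3 change minus the V2 change on the log2 scale, and those of genes listed at 0 in a group depend on the pseudocount and are no bound on a fold.

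More negative in V3 were ADH1 at -2.39, COR28 at -4.19 and GOLS3 at -5.64 among cold and galactinol genes. Of dormancy, abscisic acid and sugar starvation genes, DRM2 was at -4.50, HB53 at -2.80, RD29B at -7.45, ABI5 at -2.64, AFP1 at -1.45, TPS9 at -2.12 and TPS11 at -1.49. The hormone genes GH3.6 and GA20OX2 were at -1.60 and -5.71. The flowering, meristem and clock genes TFL1, SVP, UFO, CUC1, KNAT6 and ELF4 were at -2.78, -0.92, -2.14, -1.30, -1.26 and -3.98. NYC1 was at -0.77 and DAA1 at -6.83.

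More positive in V3 were the hormone genes GH3.1 at 4.89, ARR4 at 1.68, RGL1 at 1.37, LOX4 at 8.31 and JAZ9 at 2.57. LKR was at 7.64, CRC at 3.62 and XTH18 at 5.68. GLK1 and PSAN were at 1.58 and 0.86, SOT16 at 3.91, and the xylem and lignin genes XCP1, CCOAOMT1 and FLA12 at 2.23, 1.01 and 3.53. SDI1, ZW9, CA1, PLC1, KAT2 and GGCT2;1 were at 11.10, 5.96, 6.08, 8.75, 9.33 and 8.93.

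ATDAD1 and RECQ4B, at -9.12 and -9.03, had counts that went against their FPKM. ATDAD1 had 0 in each library at 0 d and 666, 421 and 936 at 5 d in V2, while its FPKM there averaged 0.294 and 0.0166. RECQ4B had 0 in each library at 0 d and 337 and 319.7 in the 2 usable libraries at 5 d in V2, with FPKM of 0.821 and 0.776. Of the 42 calls, 28 passed in each fit that left out 1 library and could test the gene, and 14 did not in at least 1. The 14 were HB53, DRM2, AFP1, GH3.1, ARR4, RGL1, SVP, CRC, CUC1, PSAN, GLK1, XCP1, NYC1 and GGCT2;1, with highest adjusted p-values between 0.0513 and 0.104. With zeros as deposited, 23 of the 42 held and 19 were weaker. In edgeR and DESeq2, which took only genes with no failed zero, 22 and 24 held and 3 and 1 were weaker, and the others could not be tested.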

How the results depend on the processing

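No gene that the rule named and limma called in V3 changed direction under the alternatives run. Some list medians near 0 changed sign: cytokinin from -0.41 to 0.31 with no filter on low values and to 0.08 without V3 0 d replicate 2, gibberellin from -0.36 to 0.08 and histones from 0.1 to -0.08 without that library, and S phase (-0.02) and G2/M (-0.04) to 0.18 and 0.16 at most, both without V3 0 d replicate 1. The V3 count of 4269 fell to 2527 with edgeR (1562 higher, 965 lower) and to 2084 with zeros as deposited (1306 higher, 778 lower), and the lower genes to 1256 with only the 6 V3 libraries. Leaving out each library in turn gave 2977 to 4217 genes (1690 to 2333 higher, 1287 to 1884 lower), and 104 to 123 called list members against 130 of 214. The 1243 genes whose change differed between zones became 701 with edgeR (372 positive, 329 negative, 9965 tested), 1998 with failed zeros judged by partner libraries only (969 negative), 815 among genes with no failed zero (347 negative) and 764 with zeros as deposited (339 positive, 425 negative). Positive differences were thus 56.5% of calls in the main test and 44.4% with zeros as deposited. Leaving out a library gave 731 to 1979 (395 to 1114 positive, 289 to 865 negative). It was lowest without V2 0 d replicate 1 and highest without V3 0 d replicate 1. Fewer genes were tested under some of these settings, and otherwise the cause was not tested. Same-numbered V3 libraries did not deviate together (correlations -0.121, -0.0325 and -0.0279 over 9965 genes). Whether they were grown or prepared together cannot be told from these values. A replicate block gave 2128 higher and 1615 lower genes in V3 and 360 negative zone differences. Depth limits low genes: a 0 in a library allows up to 3 reads, for counting error only, and a failed zero has no value at all.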

Other observations

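Genes of sulphur uptake and assimilation rose at 5 d in V3 buds, in 9 of 10 genes that were chosen after their values were seen, so that their number supports nothing. Sulphate enters cells through transporters, is activated by ATP sulphurylase and is then either reduced to make cysteine or passed by APS kinases to sulphated products such as glucosinolates. LSU2, a gene of the low-sulphur response, had 6.15, 18.24 and 10.2 at 0 d and 526, 159 and 398 at 5 d (log2 difference 4.80 ± 0.61, adjusted p = 0.000271). APR3, of the reductive branch, had 578, 374 and 469 at 0 d and 2107, 1210.4 and 2081 at 5 d (log2 difference 1.90 ± 0.31, adjusted p = 0.00125). The APS kinase genes APK1 and APK2 had 242, 291 and 367 at 0 d and 760.1, 719 and 1018 at 5 d (log2 difference 1.47 ± 0.20, adjusted p = 0.000422) and 71.1 and 10.2 in the 2 usable libraries at 0 d and 886, 1166 and 1240.3 at 5 d (log2 difference 5.26 ± 0.84, adjusted p = 0.00162). No 5 d library overlapped a 0 d library in these 4 genes. The transporter SULTR3;3 had 173, 247 and 195 at 0 d and 747, 569 and 705 at 5 d (log2 difference 1.72 ± 0.18, adjusted p = 7.57e-05). APS1, the ATP sulphurylase, rose less (log2 difference 0.73 ± 0.19, adjusted p = 0.0164, but 0.0593 without V3 0 d replicate 3), as did SULTR3;4 (log2 difference 0.86 ± 0.24, adjusted p = 0.0261, but 0.0591 to 0.0959 without V3 0 d replicates 1 and 2 and V3 5 d replicates 2 and 3 in turn). SULTR3;1 had 2359.6, 4066 and 3699 at 0 d and 2465, 2828 and 1963 at 5 d and was not called (log2 difference -0.46 ± 0.20, adjusted p = 0.115). With SDI1 and GGCT2;1 above, these are the 10 genes. The change differed between zones for LSU2, APR3, APK1 and SULTR3;3 (limma interaction, adjusted p = 0.00138, 0.000441, 0.011 and 0.00304).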
